A study of Mus musculus with 3 samples.

Results

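The S100 and annexin genes described here were S100a6, S100a9, S100a10, S100a11, Anxa1 and Anxa2, together with Lgals3, the gene for galectin-3. They were 7 of the 14656 genes present in both count tables. They were chosen by their summed UMI levels in the cell classes of these same libraries, S100a9 as a gene of the placode and the annexins and galectin-3 as genes of the suprabasal layer, so their differences between classes are given below as a description, with no test. The cells were dorsal skin epithelium of wild-type C57BL/6JOlaHsd mouse embryos at E14.5, the stage at which the first hair placodes, small thickenings of the epidermis, take shape. Sheets of 3 to 4 embryos of a litter were pooled for each library, dissociated, and sorted as live cells, either as placode-enriched cells that bound an antibody to MAdCAM-1 (2 libraries) or as total epithelium (1 library). The samples analysed here include no mutant, treatment or other time. Transcripts were counted as unique molecular identifiers (UMIs) from the 3' end of each captured RNA.

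S100 proteins are small calcium-binding proteins with a pair of EF hands that mostly work as dimers, and annexins are proteins that bind the acidic lipids of membranes when calcium is present. The families meet in defined complexes: a dimer of S100a10 holds a pair of Anxa2 molecules together at the plasma membrane, and S100a11 binds Anxa1 in the same manner and is cross-linked into the cornified envelope of keratinocytes. S100a9 pairs with S100a8 to form calprotectin, best known from neutrophils and from inflamed epidermis. S100a6, also called calcyclin, was described as a gene induced when quiescent cells return to growth. Galectin-3 is a lectin that binds beta-galactosides on glycoproteins and is found in differentiating keratinocytes.

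The promoters of the genes that set the placode and suprabasal layers apart most are shown because they let the sequence be read beside the levels. RefSeq gave promoters for 6 of the 7 genes on build GRCm38.p6, from 250 bases before to 50 bases after the annotated start, and S100a10 had no entry. The 4 below are written 5' to 3' on the strand of the gene, and capitals mark matches on either strand to 1 of 8 short patterns: the AP-1 pattern TGANTCA, the GC-box pattern GGGCGG bound by Sp and Klf factors, the Klf-type pattern CCACCC, the TATA-box pattern TATAAA, the C/EBP pattern TTGCNNAA, an NF-kB-type pattern of 3 G, any 5 letters and 2 C, the Grainyhead pattern AACCNGTT and the Tead pattern CATTCC.
S100a9, chr3:90695672-90695971, minus strand: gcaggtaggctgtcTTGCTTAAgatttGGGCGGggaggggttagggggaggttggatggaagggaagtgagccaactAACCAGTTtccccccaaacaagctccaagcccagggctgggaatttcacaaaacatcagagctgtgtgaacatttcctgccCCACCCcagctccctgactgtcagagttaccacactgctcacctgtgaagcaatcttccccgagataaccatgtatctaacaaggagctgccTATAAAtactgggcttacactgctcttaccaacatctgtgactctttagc
Anxa1, chr19:20390622-20390921, minus strand: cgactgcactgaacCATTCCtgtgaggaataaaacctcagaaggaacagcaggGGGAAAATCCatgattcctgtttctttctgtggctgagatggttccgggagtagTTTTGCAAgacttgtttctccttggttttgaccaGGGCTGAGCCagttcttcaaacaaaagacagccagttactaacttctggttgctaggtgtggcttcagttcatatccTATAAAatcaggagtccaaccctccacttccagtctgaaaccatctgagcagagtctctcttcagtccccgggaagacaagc
Anxa2, chr9:69453433-69453732, plus strand: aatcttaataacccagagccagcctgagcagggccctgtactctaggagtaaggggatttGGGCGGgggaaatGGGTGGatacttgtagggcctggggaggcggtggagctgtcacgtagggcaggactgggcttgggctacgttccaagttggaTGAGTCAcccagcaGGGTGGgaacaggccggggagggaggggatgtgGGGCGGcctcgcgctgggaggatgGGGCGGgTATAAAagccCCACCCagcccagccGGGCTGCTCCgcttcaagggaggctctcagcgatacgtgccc
Lgals3, chr14:47373610-47373909, plus strand: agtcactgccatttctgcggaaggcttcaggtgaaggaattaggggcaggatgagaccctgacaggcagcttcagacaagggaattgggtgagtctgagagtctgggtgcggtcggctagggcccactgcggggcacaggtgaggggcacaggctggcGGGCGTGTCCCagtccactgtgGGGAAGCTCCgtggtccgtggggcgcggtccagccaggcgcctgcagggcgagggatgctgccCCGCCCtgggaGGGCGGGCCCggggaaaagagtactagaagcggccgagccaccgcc

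The AP-1 pattern was in the promoters of Anxa2 and S100a11, where it occurred at 2 places, and was in 7.81% of all 32851 promoters of the table. The Grainyhead pattern was in that of S100a9 alone among the 6, against 2.09% of all promoters. The C/EBP pattern was in S100a9 and Anxa1 (10.8% of all promoters), and the TATA-box pattern in S100a9, Anxa1 and Anxa2 (13.6%). The TATA-box matches began at 0, -32 and -17 from the annotated start, in that order. The GC box was in S100a9, S100a11, Anxa2 and Lgals3 (35.7%), the Klf-type pattern in S100a9 and Anxa2 (31.5%), the Tead pattern in Anxa1 (14.7%), and the NF-kB type in all but S100a9 (50.8%). In Lgals3 the GC box after the start and the last NF-kB match overlapped, as did a pair of NF-kB matches. These are matches of letters, not sites shown to be bound.

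The libraries held 1511 and 1571 placode-enriched cells and 1601 total epithelium cells, with 34895848, 38640357 and 36921755 UMIs in all and medians of 21642, 23419 and 21975 UMIs per cell. At most 2 cell barcodes were shared by any pair of libraries. Cells were clustered without any gene of the S100, annexin and galectin families and named from marker genes. Placode-like cells, with Shh, Dkk4, Edar and other placode genes, made up 62.8% and 62.5% of the placode-enriched libraries and 7.86% of total epithelium. Suprabasal-like cells, with Krt1 and Krt10, made up 5.24% and 5.81% of the placode-enriched libraries and 19.5% of total epithelium, and basal-like cells 31.9%, 31.7% and 71.3%. The MAdCAM-1 sort sets these shares. Of the basal-like class, cluster 3 (188, 226 and 32 cells) had the placode marker Sostdc1 and no basal marker among its leading genes. Basal-like levels therefore rest in part on it, in the placode-enriched libraries above all, and values without it, an alternative added after the data were seen, are given where they differ. Levels below are counts-per-million (CPM), scaled to the UMIs of the class, in the order placode-enriched replicate 1, placode-enriched replicate 2, total epithelium, unless said otherwise, and their exact Poisson intervals cover counting error only.

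S100a9 was highest in placode-like cells. Placode-like cells held 72.9, 52.6 and 37.3 CPM of S100a9, suprabasal-like cells 14.8, 13.1 and 17.0 CPM, and basal-like cells 5.42, 5.96 and 2.08 CPM. The 3 classes did not overlap, and the same order held in each library. On the log2 scale placode-like cells were 1.82 ± 0.61 above suprabasal-like and 3.68 ± 0.51 above basal-like cells (SD, n = 3 libraries). In total epithelium the 22 melanoblast-like cells held 0 UMIs of S100a9, which allows up to 5.84 CPM by the limit of 3 counts and up to 7.18 CPM by the exact interval.

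The S100a9 transcripts were concentrated in few cells. A UMI of S100a9 was seen in 34.4%, 32.7% and 21.6% of placode-like cells, 26.6%, 19.8% and 18.1% of suprabasal-like cells and 13.5%, 10.3% and 4.06% of basal-like cells. With every cell thinned to 5000 UMIs these shares were 17.7%, 12.8% and 12.0% of placode-like, 10.1%, 2.20% and 7.42% of suprabasal-like and 2.29%, 2.82% and 0.971% of basal-like cells. Median depths before thinning were 19657, 21082 and 17933 UMIs in placode-like and 27126, 29151 and 21843 UMIs in basal-like cells, so the placode share was higher at the lower depth. Placode-like cells with 5 or more S100a9 UMIs were 7.18%, 4.80% and 2.40% of the class and carried 69.4%, 61.3% and 53.4% of its S100a9 UMIs. The highest single cells had 81, 65 and 36 UMIs.

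S100a8, the calprotectin partner of S100a9, was nearly silent in the same cells. It gave 3, 11 and 0 UMIs in placode-like, 2, 1 and 11 in suprabasal-like and 1, 1 and 2 in basal-like cells, so the pair was not found together at the levels of S100a9. Markers of blood cells were read beside this, since neutrophils carry both genes. Of 18 myeloid and neutrophil markers 3 were in both tables. Fcer1g, a receptor subunit of myeloid cells, stood at 0.256, 0.325 and 0 CPM in placode-like cells, and Cx3cr1, a chemokine receptor of myeloid cells, was at 0 in the placode-like cells of all 3 libraries. Cd74, the invariant chain of MHC class II, was highest in placode-like cells too, at 117, 109 and 96.7 CPM, but lower in suprabasal-like (23.4, 20.2 and 2.99 CPM) than in basal-like cells (37.6, 37.6 and 13.5 CPM), the reverse of S100a9. Its part in the S100a9 levels was not tested.

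Among the 3 classes S100a6 was also highest in the placode, by a smaller margin that rested on the total epithelium library. In that library the melanoblast-like cells held 29.2 CPM (15 UMIs, interval 16.3 to 48.2), above the 21.6 CPM of placode-like cells, which lay within the interval. S100a6 levels were 36.5, 35.7 and 21.6 CPM in placode-like, 32.6, 30.1 and 6.23 CPM in suprabasal-like and 18.4, 19.7 and 9.33 CPM in basal-like cells. Placode-like exceeded basal-like cells in each library, by 1.02 ± 0.18 on the log2 scale, and by a mean of 1.28 with basal-like cells taken without cluster 3. Placode-like and suprabasal-like levels differed by 0.17 and 0.25 log2 in the placode-enriched libraries, where the intervals overlapped, and by 1.79 in total epithelium, so their mean of 0.74 ± 0.92 was within the spread between libraries.

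Anxa1 and Anxa2 ran the other way, lowest in the placode and highest in suprabasal cells. Anxa1, a phospholipid-binding annexin known for its anti-inflammatory action, stood at 19.0, 15.2 and 61.5 CPM in placode-like, 268, 243 and 747 CPM in suprabasal-like and 107, 103 and 249 CPM in basal-like cells. Placode-like cells were lower than suprabasal-like cells by a log2 difference of -3.81 ± 0.20 and lower than basal-like cells by -2.43 ± 0.38. Anxa2 stood at 583, 512 and 823 CPM in placode-like, 1300, 1284 and 1624 CPM in suprabasal-like and 1004, 958 and 1374 CPM in basal-like cells. Its log2 differences were -1.15 ± 0.17 against suprabasal-like and -0.81 ± 0.09 against basal-like cells. Within every library both annexins were lowest in placode-like, intermediate in basal-like and highest in suprabasal-like cells.

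Of the 7 genes galectin-3 was the most restricted to suprabasal cells. Lgals3 gave 0.666, 0.511 and 13.6 CPM in placode-like cells, 28.0, 34.5 and 225 CPM in suprabasal-like and 0.527, 0.416 and 12.7 CPM in basal-like cells. A UMI was seen in 1.37%, 1.12% and 20.8% of placode-like, 24.1%, 20.9% and 67.7% of suprabasal-like and 1.46%, 1.21% and 24.4% of basal-like cells. In total epithelium the melanoblast-like cells, a lineage apart from the epidermis, held 11.7 CPM, with a UMI in 22.7% of cells at a median depth of 21283 UMIs. The interval of that level, from 6 UMIs, was 4.29 to 25.4 CPM. The values of placode-like and basal-like cells in that library lay within it, so no expression is read from them. Krt1, an abundant suprabasal keratin, stood there at 102 CPM in placode-like, 3007 CPM in suprabasal-like, 104 CPM in basal-like and 79.8 CPM in melanoblast-like cells. For Anxa1 the melanoblast-like cells held 113 CPM, above the 61.5 CPM of placode-like cells of that library.

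**Figure D1:**
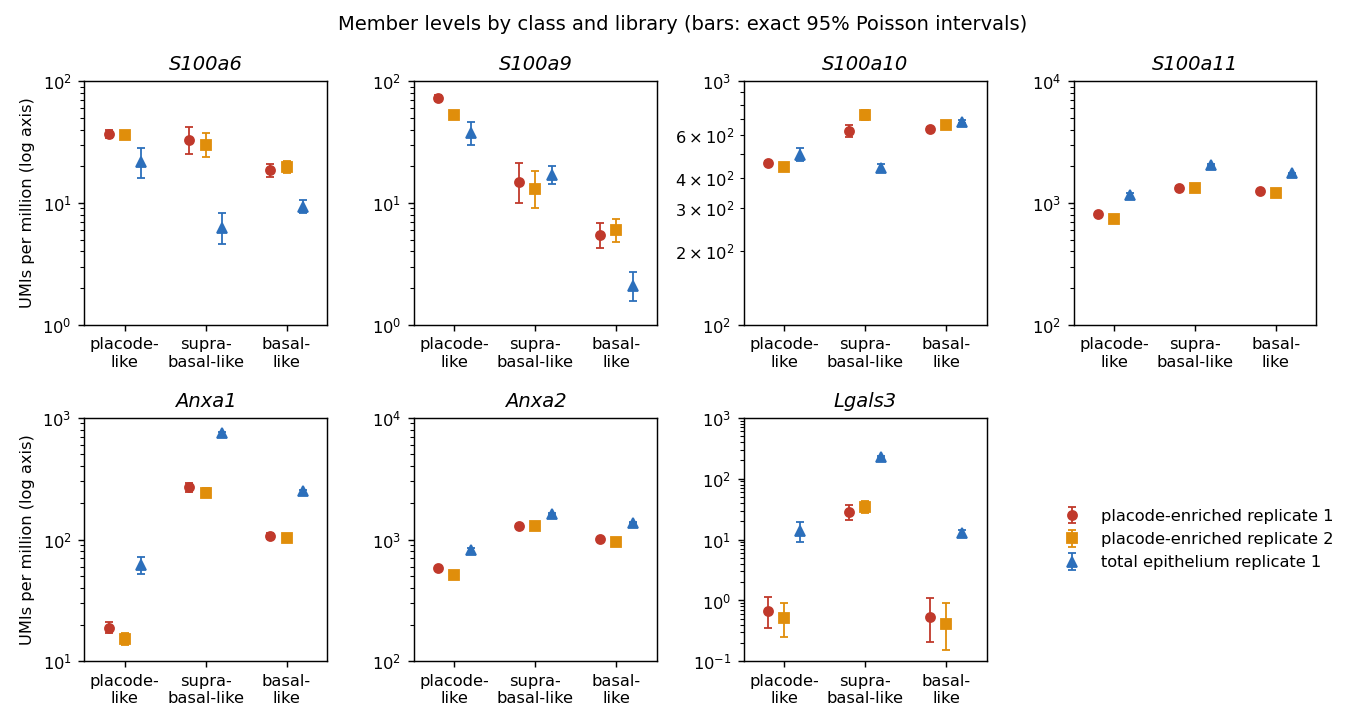
Levels of the 7 genes (CPM, log axis) in placode-like, suprabasal-like and basal-like cells; each point is a library and bars are exact 95% Poisson intervals. S100a9 is highest in placode-like cells of all 3 libraries, and Anxa1, Anxa2 and Lgals3 in suprabasal-like cells, with Lgals3 at 225 CPM in total epithelium.

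S100a10 and S100a11, the annexin-binding S100 genes, had a UMI in at least 98.7% of cells of each of these classes in each library. S100a11 was, like the annexins, lowest in placode-like and highest in suprabasal-like cells, with 804, 733 and 1153 CPM in placode-like, 1319, 1327 and 2042 CPM in suprabasal-like and 1254, 1195 and 1747 CPM in basal-like cells. The log2 difference of placode-like cells was -0.80 ± 0.08 against suprabasal-like and -0.65 ± 0.05 against basal-like cells. S100a10 stood at 462, 445 and 499 CPM in placode-like, 621, 726 and 440 CPM in suprabasal-like and 635, 659 and 680 CPM in basal-like cells. Placode-like cells were below basal-like cells in each library (-0.49 ± 0.07), while the difference from suprabasal-like cells (-0.32 ± 0.46) changed sign in total epithelium.

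Transcripts of the S100 partners therefore did not keep step with their annexins. There were 0.793, 0.870 and 0.606 S100a10 UMIs per Anxa2 UMI in placode-like, 0.478, 0.565 and 0.271 in suprabasal-like and 0.633, 0.688 and 0.495 in basal-like cells. There were 42.4, 48.1 and 18.7 S100a11 UMIs per Anxa1 UMI in placode-like, 4.91, 5.46 and 2.73 in suprabasal-like and 11.7, 11.6 and 7.02 in basal-like cells. Both ratios were highest in placode-like and lowest in suprabasal-like cells within every library. They compare 3' UMIs between classes and are not ratios of protein.

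**Figure D2:**
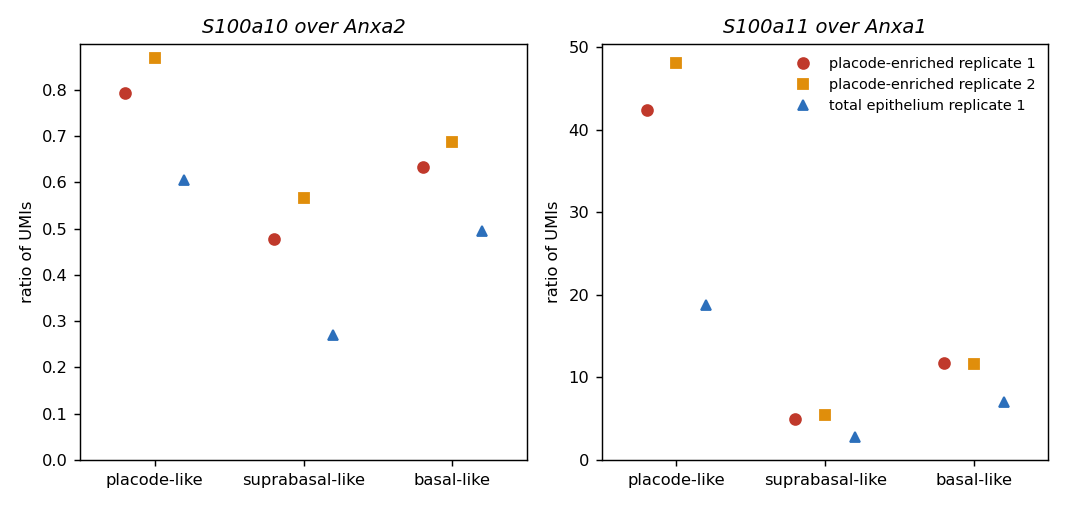
UMIs of S100a10 per UMI of Anxa2 (left) and of S100a11 per UMI of Anxa1 (right) by class; each point is a library. In both panels placode-like cells are highest and suprabasal-like cells lowest in each library.

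The suprabasal class was made of 2 clusters that differed in these genes. Cluster 6 held 75 and 83 placode-enriched and 116 total epithelium cells, and cluster 11 held 194 cells of total epithelium and few of the others. In total epithelium cluster 11 had 4392 CPM of Krt1 and 301 CPM of Krt17, and cluster 6 had 956 CPM of Krt1 and 872 CPM of Krt17. Lgals3 stood at 356 CPM in cluster 11 and 30.3 CPM in cluster 6 of that library, and Anxa1 at 974 and 410 CPM. S100a9 was higher in cluster 11 (23.9 CPM, 95% interval 19.7 to 28.9) than in cluster 6 (6.77 CPM, 4.19 to 10.3). S100a10 went the other way, with 355 CPM in cluster 11 and 564 CPM in cluster 6. These 2 clusters were parted by their expression, so the values are a description.

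**Figure D3:**
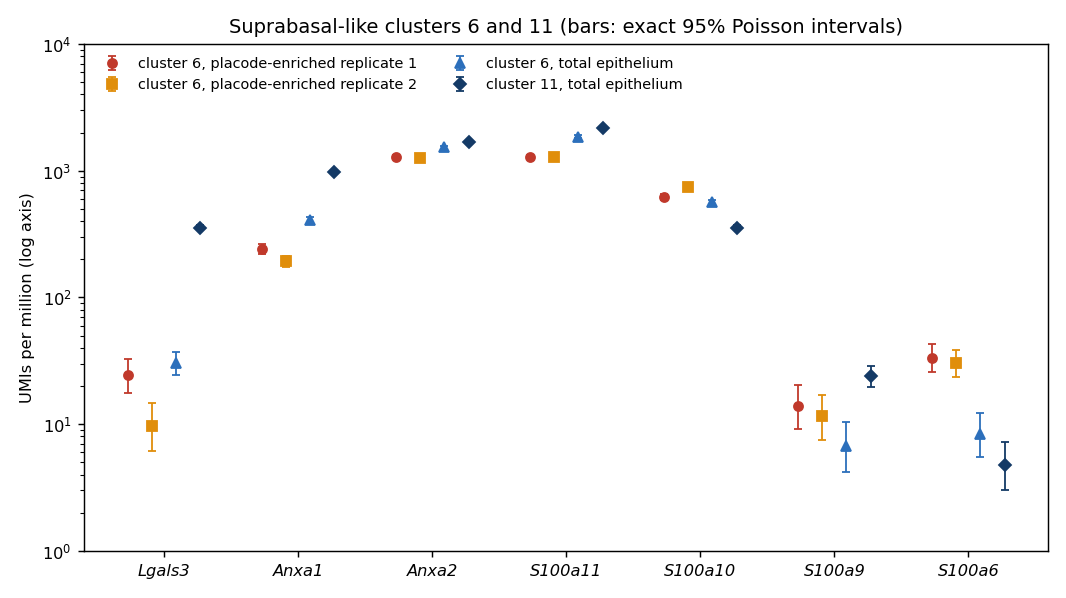
Levels of the 7 genes (CPM, log axis) in suprabasal-like cluster 6 of each library and cluster 11 of total epithelium, with exact 95% Poisson intervals. Lgals3 and Anxa1 are highest in cluster 11, at 356 and 974 CPM, and S100a6 is higher in cluster 6 of the placode-enriched libraries.

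The 5 placode-like clusters differed in both S100 genes of the placode. S100a9 ranged from 31.0 CPM in cluster 4, which had the most Sostdc1 of the 5, to 95.3 CPM in cluster 7, and stood at 71.7 CPM in cluster 5, which had the most Shh. In cluster 7 the placode-enriched libraries differed, with 134 and 68.9 CPM of S100a9. S100a6 ranged from 5.80 CPM in cluster 9 to 60.8 CPM in cluster 5. Cluster 9 had 45.2 CPM of S100a9.

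Splits inside a class did not choose the genes and were tested, with edgeR's quasi-likelihood test on UMIs summed per library, the library as a block, and p-values adjusted over all genes of each fit. Shh, and Krt1 and Krt10, are also markers that named the classes, so splits by them may run along the differences that chose the genes. Within the placode, Shh is made by cells at the centre and Sox9 by cells that give rise to later stem cells. Placode-like cells positive for Shh alone of this pair (Shh cells, 274, 312 and 35) were compared with those positive for Sox9 alone (Sox9 cells, 267, 243 and 32). Of the 7 genes 2 were higher and 4 lower in Shh cells, where 15.1% of all genes passed, 7.51% higher and 7.58% lower. S100a9 stood at 133, 68.5 and 23.9 CPM in Shh cells and 42.9, 25.01 and 13.3 CPM in Sox9 cells, higher in 3 of 3 libraries (log2 fold change 1.57 ± 0.09 SE, adjusted p = 1.95e-41). By library its log2 differences were 1.63, 1.45 and 0.84, a wider spread than that SE. In total epithelium, with 35 and 32 cells, both levels lay below the 37.3 CPM of all placode-like cells. S100a6 stood at 53.4, 54.0 and 28.7 CPM in Shh cells and 33.7, 26.8 and 21.6 CPM in Sox9 cells (0.84 ± 0.10, adjusted p = 7e-13).

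Against these, Anxa1 was lower in Shh cells, with 11.2, 7.25 and 60.6 CPM, than in Sox9 cells, with 30.3, 27.5 and 59.95 CPM (-1.34 ± 0.15, adjusted p = 1.02e-14). The values differed in both placode-enriched libraries and lay close together in total epithelium, below the melanoblast-like level given above. Anxa2 (-0.63 ± 0.04), S100a10 (-0.39 ± 0.04) and S100a11 (-0.37 ± 0.04) were lower in Shh cells of all 3 libraries. Lgals3 did not pass (0.04 ± 0.62), at 0.892, 0.604 and 11.2 CPM in Shh cells and 0.370, 0.355 and 18.3 CPM in Sox9 cells. All 6 calls held when any 1 library was left out. Without the library block only S100a6 and S100a9 passed.

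Cells were also ranked by the share of their UMIs in genes of S, G2 and M phase, and those above the median share of their library and class (high-share cells) were set against the rest (low-share cells). The split fixes the number of cells on each side, so no cycling is read from it. High-share cells of the placode were deeper, with means of 24081, 25568 and 22606 UMIs per cell, against 17134, 18390 and 15171 in low-share cells. In the placode 1 gene was higher and 4 were lower in high-share cells, where 25.9% of all genes passed, 14.7% higher and 11.2% lower. S100a9 stood at 88.2, 58.7 and 42.8 CPM in high-share and 51.5, 44.1 and 29.3 CPM in low-share placode-like cells (0.64 ± 0.07, adjusted p = 2.4e-10). In total epithelium a single cell held 36 of the 88 S100a9 UMIs of placode-like cells, so the direction there may rest on it. S100a6 was lower in high-share cells, with 29.9, 31.1 and 18.6 CPM, than in low-share cells, with 45.8, 42.2 and 26.2 CPM (-0.49 ± 0.08, adjusted p = 4.24e-06). S100a10 (-0.15 ± 0.04), S100a11 (-0.21 ± 0.04) and Anxa2 (-0.23 ± 0.04) were lower by small amounts. Without placode-enriched replicate 1 only S100a6, S100a9 and Anxa1 passed, 3 of 7, and without the block 0 did. With cells thinned to 5000 UMIs, S100a6, S100a9, S100a11 and Anxa2 passed, and with DESeq2, S100a9, S100a11 and Anxa2 did. With a placode rule of 6 of 9 markers, added after the data were seen, only S100a6 and S100a9 passed, and S100a10 (0.10) and Anxa2 (0.03) turned.

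In suprabasal-like cells only Lgals3 passed for the cycle split, where 6.98% of all genes did, 3.68% higher and 3.3% lower. It stood at 31.0, 12.0 and 80.8 CPM in high-share and 23.3, 67.3 and 423 CPM in low-share cells (-2.02 ± 0.33, adjusted p = 0.00203), lower in 2 of 3 libraries. Without total epithelium 0 of 7 passed, and without placode-enriched replicate 1 there were 2. In basal-like cells S100a10 (-0.10 ± 0.03), S100a11 (-0.23 ± 0.03) and Anxa2 (-0.13 ± 0.03) were lower in high-share cells, where 11.9% of all genes passed, 6.56% higher and 5.32% lower. The call of S100a10 was lost without any 1 library, and that of Anxa2 without placode-enriched replicate 1. With basal-like cells taken without cluster 3, 0 of 7 passed, as at clustering resolution 0.5, where S100a10 (0.01) and Anxa2 (0.03) turned, and without the block. With DESeq2 only S100a11 passed.

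Among suprabasal-like cells, those above the median share of Krt1 and Krt10 UMIs of their library were set against the rest, as a measure of how far a cell had gone into differentiation. This split takes up part of the difference between clusters 6 and 11. Krt1 and Krt10 also helped to name the suprabasal-like class, for which Anxa1, Anxa2 and Lgals3 were chosen. The tests below are therefore not independent of that choice. Lgals3, Anxa1 and S100a11 were higher in cells rich in these keratins, 3 of 7 genes, where 6.29% of all genes passed, 3.28% higher and 3.01% lower. Lgals3 stood at 49.9, 55.6 and 436 CPM in keratin-rich and 2.22, 9.53 and 42.6 CPM in other cells (3.37 ± 0.21, adjusted p = 9.49e-06). Anxa1 stood at 374, 366 and 1039 CPM in keratin-rich and 144, 97.9 and 495 CPM in other cells (1.43 ± 0.13, adjusted p = 8.38e-05). S100a11 rose by less (0.41 ± 0.10, adjusted p = 0.0269) and missed the threshold without either placode-enriched library. S100a6 was lower in keratin-rich cells of all 3 libraries without passing (-0.80 ± 0.23, adjusted p = 0.0625). Without total epithelium S100a6 and Anxa2 passed as well, 5 of 7, and without the block 0 did.

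**Figure D4:**
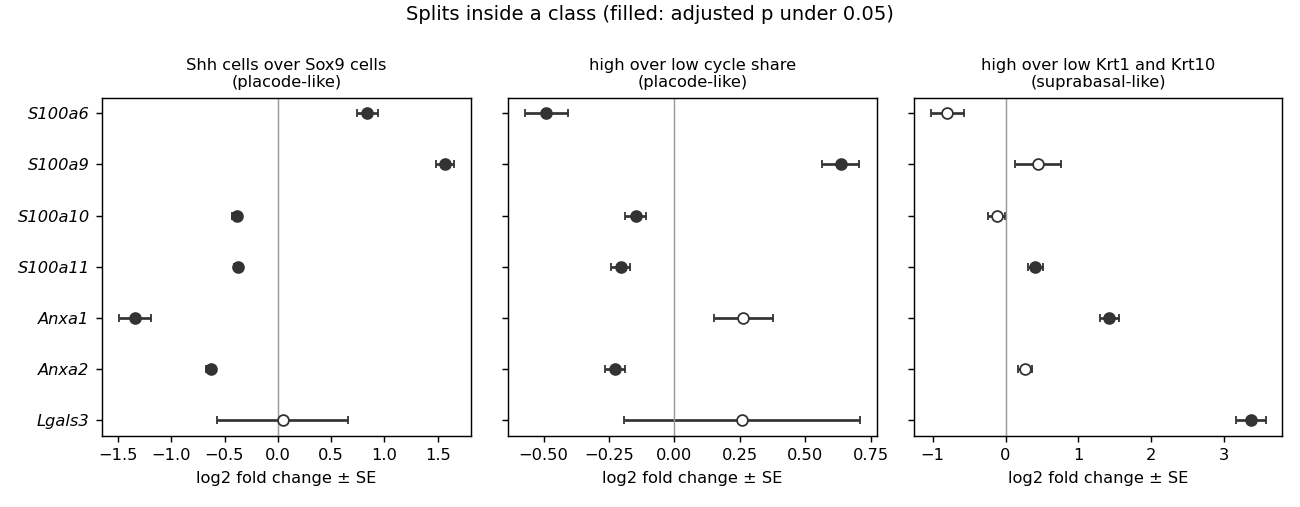
Log2 fold changes with standard errors of the 7 genes between Shh and Sox9 cells and between cells with a high and a low cycle share of the placode, and between suprabasal-like cells rich and poor in Krt1 and Krt10; filled points passed the adjusted threshold of 0.05. S100a9 is above 0 in both placode panels (1.57 and 0.64), and Lgals3 reaches 3.37 in the suprabasal panel.

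Periderm, the outermost layer of embryonic skin, can also hold annexins, and 10 of its 11 listed markers were in both tables. Their summed level was 1199, 1042 and 1052 CPM in placode-like, 3684, 2837 and 690 CPM in suprabasal-like and 456, 421 and 239 CPM in basal-like cells, most of it Krt17. In total epithelium Krt17 and S100a10 were both higher in cluster 6 than in cluster 11, as given above. A split by this list may therefore follow Krt17 and the difference between these clusters, and no periderm is read from it. Suprabasal-like cells rich in the list had more S100a10 than the others (0.37 ± 0.06, adjusted p = 0.0301), the 1 gene of the 7 to pass, where 0.183% of all genes did, 0.114% higher and 0.0687% lower. The call was lost without either placode-enriched library. Without total epithelium 3 of 7 passed.

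Cells of a class were then compared between the MAdCAM-1 gate and total epithelium, with 2 libraries against 1, so that the gate and the pool of embryos cannot be told apart. The sums of whole classes compared here are also those by which the genes were chosen. Their tests between the gates are therefore not independent of that choice. In the placode S100a6 (0.77 ± 0.21, adjusted p = 0.0352) and S100a9 (0.78 ± 0.20, adjusted p = 0.0242) were higher in the gated libraries, and S100a11 (-0.55 ± 0.12), Anxa2 (-0.56 ± 0.12), Anxa1 (-1.82 ± 0.18) and Lgals3 (-4.48 ± 0.48) lower. These were 6 of 7 genes, where 2.62% of all genes passed, 1.22% higher and 1.4% lower. The summed suprabasal markers also differed, at 215 and 182 CPM in gated and 1003 CPM in total epithelium placode-like cells, and the total epithelium level of Lgals3 lay within the melanoblast-like interval given above. Their part in these calls was not tested. With DESeq2 the calls of S100a6 and S100a9 were lost, and with cells thinned to 5000 UMIs only that of Lgals3 remained.

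In suprabasal-like cells 2 genes were higher and 4 lower in the gated libraries, where 21.5% of all genes passed, 11.8% higher and 9.73% lower, but cluster 11 was nearly limited to total epithelium. The summed placode markers of the class also differed, at 367 and 318 CPM in gated and 115 CPM in total epithelium cells. Their part in the calls of the class and of cluster 6 was not tested. Within cluster 6 alone, a comparison added after the data were seen, S100a6 was higher (1.95 ± 0.32, adjusted p = 2.23e-07), at 33.4 and 30.5 CPM in gated and 8.38 CPM in total epithelium cells. Anxa1 (-0.90 ± 0.15), S100a11 (-0.50 ± 0.13) and Lgals3 (-0.85 ± 0.28) were lower there, 4 of 7 genes in all, where 14.8% of all genes passed, 8.56% higher and 6.27% lower. With DESeq2 only Anxa1 passed there (adjusted p = 0.0118; S100a6 0.0542, S100a11 0.127, Lgals3 0.933), and with cells thinned to 5000 UMIs only Anxa1 and S100a11 did (edgeR adjusted p for S100a6 0.0772 and for Lgals3 0.541). The basal-like class was not compared as a whole, as first planned. Its clusters differed between the gates, and its cluster 3 had a placode marker and no basal marker among its leading genes. A cluster of the class was taken instead, a comparison also added after the data were seen. In its cluster 8 (36 and 14 gated and 137 total epithelium cells) Anxa1 passed, at 117 and 127 CPM in gated and 281 CPM in total epithelium cells (-1.15 ± 0.20, adjusted p = 2.85e-06), where 2.11% of all genes did, 1.21% higher and 0.897% lower. The call was lost with cells thinned to 5000 UMIs (adjusted p = 0.215), and DESeq2 gave Anxa1 no adjusted p. There Lgals3 gave no UMI in either gated library and 14.7 CPM in total epithelium. The latter level lay within the melanoblast-like interval given above, so no expression is read from it.

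Relatives of these genes, which took no part in the clustering, were counted from lists of 54 other S100, fused-type S100, annexin, galectin and partner genes, of which 37 were in both tables. Fits between classes covered the symbols outside the set drawn for clustering and the listed genes, without the markers that named the classes. All genes here means the 5668, 6061 and 6312 tested, in the order of the comparisons below. In placode-like against suprabasal-like cells 4 of 28 tested were higher and 12 lower, where 31.9% of all genes passed, 15.9% higher and 16% lower, with a median log2 fold change of -0.32 over the lists and 0.01 over all genes. In suprabasal-like against basal-like cells 10 of 32 were higher and 6 lower, where 27.2% of all genes passed, 14.2% higher and 13% lower (medians 0.17 and -0.01). In placode-like against basal-like cells 6 of 31 were higher and 8 lower, where 42.5% of all genes passed, 21.2% higher and 21.3% lower (medians -0.05 and 0.01). Without placode-enriched replicate 1, or without replicate 2, 2 in place of 6 were higher.

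Annexins did not move as a group. Anxa6 (1.60 ± 0.28) and Anxa11 (0.96 ± 0.21) were higher in placode-like than in suprabasal-like cells, as was Anxa5 (0.93 ± 0.12), while Anxa7 was lower (-1.21 ± 0.14). Anxa5 (0.47 ± 0.04, adjusted p = 9.7e-08) and Anxa6 (0.63 ± 0.05, adjusted p = 6.18e-08) were also higher in placode-like than in basal-like cells, at means of 369 and 69.2 CPM in placode-like and 264 and 44.3 CPM in basal-like cells. Anxa8 was lower in placode-like than in basal-like cells (-2.47 ± 0.11), at 6.61, 5.76 and 21.6 CPM against 38.6, 36.4 and 78.1 CPM. Anxa5 and Anxa7 were picked after their values were seen. The call of Anxa11 was lost without placode-enriched replicate 2, as was that of Anxa6 between suprabasal-like and basal-like cells (-1.01 ± 0.26).

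Galectins were split as well. Lgals1 was higher in placode-like than in suprabasal-like cells (1.09 ± 0.14) and lower in suprabasal-like than in basal-like cells (-0.995 ± 0.09). Lgals9 was lower in placode-like than in basal-like cells (-1.18 ± 0.16), as it was in suprabasal-like cells (-2.47 ± 0.30), and placode-like and suprabasal-like cells did not pass against each other (1.19 ± 0.46, adjusted p = 0.0799). Lgals7, a galectin of stratified epithelia picked after its values were seen, was higher in suprabasal-like than in basal-like cells (1.69 ± 0.06), at 1239, 1429 and 1846 CPM against 404, 389 and 590 CPM.

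Among the S100 genes, S100a14 (3.54 ± 0.10) was higher in suprabasal-like than in basal-like cells and lower in placode-like than in suprabasal-like cells (-3.45 ± 0.09). It stood at 25.3, 22.8 and 43.3 CPM in placode-like, 307, 259 and 416 CPM in suprabasal-like and 21.6, 21.3 and 42.6 CPM in basal-like cells. Hrnr, a fused-type S100 gene of the cornified layer, gave 0, 1 and 0 UMIs in placode-like, 1, 12 and 20 in suprabasal-like and 0, 0 and 4 in basal-like cells. It passed against both, as S100a8 did between suprabasal-like and basal-like cells, but their few UMIs give no usable fold. Tchh, another fused-type gene, was lower in placode-like than in basal-like cells (-1.42 ± 0.24). S100a1 (0.67 ± 0.21) and S100b (1.16 ± 0.44) were higher in placode-like than in basal-like cells at 3.45 ± 0.32 and 1.03 ± 0.29 CPM (SD, n = 3), and both calls were lost without either placode-enriched library. That of S100b was also lost with basal-like cells taken without cluster 3 (1.28, adjusted p = 0.0532).

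Among partners, Ahnak, a large scaffold protein that binds the complex of S100a10 and Anxa2 and was picked after its values were seen, followed Anxa2. It was higher in suprabasal-like than in basal-like cells (1.36 ± 0.10) and lower in placode-like than in basal-like cells (-0.62 ± 0.04). Plat, the tissue plasminogen activator that binds this complex on the cell surface, was higher in placode-like than in basal-like cells (2.64 ± 0.46), with 32, 38 and 1 UMIs against 3, 3 and 5. Plau, the urokinase gene, passed as lower in placode-like than in suprabasal-like cells on few UMIs, 4, 5 and 0 against 5, 4 and 18, and the call was lost without placode-enriched replicate 2.

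On build GRCm38.p6 S100a6 and S100a9 lie in a run of S100 genes on chromosome 3 from 90511034 to 90695721, and S100a11 and S100a10 lie from 93520496 to 93564645 on the same chromosome. Some neighbours in the run were alike and others were not. S100a14 and S100a16 were both highest in suprabasal-like cells, while S100a13, on the other side of S100a14, was not by its mean. S100a16, at 90537254 to 90543151 beside S100a14, stood at 78.5 ± 20.9 CPM in placode-like, 562 ± 132 CPM in suprabasal-like and 84.6 ± 31.5 CPM in basal-like cells (SD, n = 3), and was picked after its values were seen. S100a13, at 90514233 to 90524581, stood at 24.3 ± 1.11, 18.4 ± 8.21 and 20.9 ± 0.254 CPM in the same order. S100a9 lies 22.6 kb from the nearly silent S100a8. S100a11 has an annotated pseudogene, and how reads shared with it were counted is not given in the sources used here.

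Genes of like pattern were ranked by Pearson r of log2(CPM + 1) over the 9 sums of library and class, among 7659 genes with a mean of at least 10 CPM; these sums share libraries and carry no p. Nearest to S100a9 were Sh3bp5 (0.988), Spint2 (0.985), Agpat4 (0.978), Cyth1 (0.970) and Mast4 (0.965). Nearest to Anxa1 was Anxa2 (0.992), followed by Cops7a (0.991), Gcsh (0.989), Abhd11 (0.987) and Timm17a (0.986). Nearest to Anxa2 were Smim13 (0.994), Anxa1, Fgfbp1 (0.991), Cops7a (0.985) and Abhd11 (0.983). Nearest to Lgals3 were Fam25c and 2610528A11Rik (0.990 each), Them5 (0.986), Katnbl1 (0.985) and Fancg (0.985). Fam25c averaged 3.54 CPM in placode-like, 58.5 CPM in suprabasal-like and 2.97 CPM in basal-like cells.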

How the data were processed

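Both tables hold deposited UMI counts, whole and not normalized, by gene and cell, from 10x Genomics 3' chemistry version 2 per the labels' protocols. Per the submitters' processing notes, the tools were Cell Ranger and Seurat and the genome build mm10, with no version given. The sources used here name no annotation, strand setting or cell filter. The placode-enriched libraries shared a table, and the number ending each barcode was taken as the library number; a swap would change only their names. The 14656 genes in both tables were used. A filter of 500 genes and 10% mitochondrial UMIs removed 0 cells.

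Doublets were called with scrublet (scanpy 1.11.5, expected rate 0.05), which marked 4, 4 and 11 cells (0.265%, 0.255% and 0.687%). So low a share of the placode-enriched cells leaves doublets likely among the 4664 cells kept. Leiden clusters (resolution 1, igraph 0.11.9) came from 30 principal components and 20 neighbours over the 1000 most variable of 7318 genes, a set of symbols drawn by an arbitrary hash, which left out markers and family genes. Of 13 clusters 5 were placode-like (5 of 9 markers at 25% of the highest cluster), 2 suprabasal-like (4 of 8 at 25%), 5 basal-like (7 of 7 at 50%) and 1 melanoblast-like (5 at 50%). The marker numbers and percentages were chosen with the clusters in view. The basal-like class was not compared between gates because its clusters differed between them and the top genes of 1 cluster held a placode marker and no basal one.

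Sums per library and class went into quasi-likelihood tests in edgeR 4.0.16 under R 4.3.3, after filterByExpr and TMM, with, except between gates, the library as a block since both sums of a pair come from the same library. P-values were adjusted by Benjamini and Hochberg with a threshold of 0.05. Gate fits had 1 residual degree of freedom, so the single library of total epithelium is taken to vary as the placode-enriched ones do. The series' design text states that the placode-enriched libraries are biological replicates. On simulated data for the placode gate fit (12776 genes) 53% of genes changed by a log2 of 1 were recovered, and 81% at 2, with 9 false calls. For suprabasal-like against basal-like (6061 genes) these were 73% and 96%, with 2 false calls, and for the Krt1 and Krt10 split (8762 genes) 73% and 93%, with 6 false calls. The simulated sums had the same mean share of a gene in every library, apart from the changes put in. Differences between libraries, pools or gates were thus left out, and the false calls do not measure them. The genes described and all lists were chosen with earlier results of these data known. Named relatives were the 3 with the largest change in each direction that passed in the same sign in all libraries. Alternatives were DESeq2, other filters, depths, clusterings and splits, and left-out libraries.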

Additional observations from a re-analysis of the deposited data

Results flagged for a closer look

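For 2 genes the split by cycle-gene share went one way in all 3 libraries of one class and the opposite way in all 3 of another. S100a9 was higher in high-share placode-like cells (log2 fold change 0.6363, adjusted p = 2.4e-10 by edgeR) and basal-like cells (0.5727, adjusted p = 0.119), and lower in high-share suprabasal-like cells (-0.5815, adjusted p = 0.207). S100a10 was lower in high-share placode-like cells (-0.1474, adjusted p = 0.00345) and basal-like cells (-0.104, adjusted p = 0.0493), and higher in high-share suprabasal-like cells (0.2361, adjusted p = 0.105). The difference between classes was not tested. The suprabasal-like values rest on 79, 91 and 310 cells in placode-enriched replicates 1 and 2 and total epithelium. For S100a9, the highest placode-like cell of total epithelium held 36 of the 88 UMIs of its class there. In placode-enriched replicate 2 the highest suprabasal-like cell held 9 of 33. The direction in each of these may rest on that cell.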

How the results depend on the processing

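Of 1480 values recomputed under an alternative, 1273 were counted as the same. A tested gene had to stay on its side of the threshold, and to keep its direction if it passed in either fit. Counts of genes had to stay within 1.5 times, and untested values to move by less than their SE or the spread between libraries. A gene that passed in neither fit could turn and still count. S100a6 in the basal-like cycle did, at 0.37 without cluster 3 and -0.20 in the main fit. Without the replicate block, 2 members passed for Shh against Sox9, and 0 for each of the cycle splits, the Krt1 and Krt10 split and the periderm split; family genes in placode-like against basal-like cells then numbered 2 higher and 5 lower, and 3 were lower in suprabasal-like against basal-like cells. The block changed no other count by over 1.5 times. With DESeq2, 3 members passed for the cycle in placode-like, 0 in suprabasal-like and 1 in basal-like cells, 0 for periderm, 1 for the gate in cluster 6 and 0 in cluster 8, and 3 family genes were higher in placode-like against basal-like cells. With cells thinned to 5000 UMIs, 1 member passed for the placode gate, 2 for cluster 6, 0 for cluster 8, 1 for Krt1 and Krt10 and 0 for periderm; 7 family genes were lower in placode-like against suprabasal-like and 6 higher in suprabasal-like against basal-like cells, and S100a1 in placode-like against basal-like cells turned to -0.03038. With no filter on low counts, 5 passed for Krt1 and Krt10, 3 for periderm and 2 for cluster 8. With the other clustering genes 3 passed for periderm.

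At resolution 0.5, 2 passed for the placode gate, 2 for the suprabasal-like and 0 for the basal-like cycle, and 7 family genes were higher in placode-like against suprabasal-like cells. In that setting S100a10 (0.01436) and Anxa2 (0.03385) in the basal-like cycle and Lgals7 (0.01786) in placode-like against basal-like cells turned, and Anxa1 in placode-like minus suprabasal-like cells was -3.05. At resolution 2 it was -4.11, with 2 members for the suprabasal-like cycle, 0 for periderm and 3 family genes higher in placode-like against basal-like cells. Comparing the upper with the lower tertile of cells gave 2 for the suprabasal-like cycle. With a placode rule of 6 of 9 markers, added after the data were seen, 2 passed for the placode cycle, S100a10 (0.1017) and Anxa2 (0.02965) turned there, and Anxa2 in placode-like minus suprabasal-like cells was -1.33. With basal-like cells taken without cluster 3, also added then, 0 passed for the basal-like cycle. The cause of these changes was not tested.

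Leaving out each library gave 3 to 5 members for the placode cycle, 0 to 2 for the suprabasal-like and 1 to 3 for the basal-like cycle, 2 to 5 for Krt1 and Krt10 and 0 to 3 for periderm, and 2 to 6 family genes higher in placode-like against basal-like cells. Gate fits without a placode-enriched library are 1 against 1 and gave no test. No cluster was unnamed, so counting unnamed clusters as basal-like gave no other value. Depth limits Lgals3 in placode-like and basal-like cells of the placode-enriched libraries, which rest on 6 to 13 UMIs, and S100a8 throughout.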
